A study of Rattus norvegicus with 120 samples.

Results

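The 20 hippocampal small RNA libraries described here came from rats in which status epilepticus (SE) was induced in infancy and from their controls, all taken in the latent stage, 1 week after the injection. The libraries were assigned by their labels and not by their values, as every latent-stage library with an onset age of postnatal day 12, which gave 10 SE rats and 10 control rats, 1 library per rat, of 114 libraries with counts and 120 labelled in the whole series. The series asked whether the miRNA profile of temporal lobe epilepsy depends on the age at which SE occurred, and covered 2 onset ages (postnatal days 12 and 60) and 3 stages (24 hours, 1 week and 3 months). All rats were male Wistar rats given lithium chloride. SE rats then received pilocarpine, a muscarinic agonist that evokes prolonged seizures after lithium, and paraldehyde some time after convulsions began to limit mortality. Control rats received saline in place of pilocarpine, and no paraldehyde is described for them. The methods describe collection of the entire hippocampus of both hemispheres for the chronic stage. The tissue was bulk hippocampus, so fewer cells of a type and less RNA per cell cannot be told apart. The pilocarpine, the seizures and the paraldehyde cannot be told apart either, because the same rats received all 3.

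MicroRNAs (miRNAs) are short RNAs that guide the silencing complex to messenger RNAs, chiefly through the seed, bases 2 to 8 counted from the 5′ end. A hairpin precursor yields up to 2 mature products, the 5p and 3p arms, and neighbouring hairpins are often processed from one transcript. In the brain, some miRNAs are induced by neuronal activity through the transcription factor CREB (miR-132 and miR-212), some are made by glia and immune cells (miR-21, miR-142, miR-155), and some come almost wholly from red blood cells (miR-144, miR-451).

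The sequences below are those of the miRNAs on which the comparison turned, from RefSeq (build GRCr8), where 373 of the 406 miRNAs tested had a mature entry of the same name. The first 4 are the arms of 2 hairpins, Mir212 and Mir132, on the plus strand of chromosome 10. They are shown because the 3p arms share a seed, given in capitals, and no other of the 373 had it. miR-212-3p lies at chr10:60521811-60521832 and miR-132-3p at chr10:60522091-60522112, with 258 bases between them, and the 2 mature sequences differ at 5 of 22 positions.
miR-212-3p: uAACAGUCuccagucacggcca
miR-132-3p: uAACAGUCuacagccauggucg
miR-212-5p: aCCUUGGCucuagacugcuuacug
miR-132-5p: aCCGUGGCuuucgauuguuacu

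The next 3 come from the erythroid hairpins Mir144 and Mir451a, also on the plus strand of chromosome 10. miR-144-5p lies at chr10:63459409-63459431 and miR-451-5p at chr10:63459585-63459606, with 153 bases between them. They are shown because they stand next to each other in the genome while none of the 3 seeds, again in capitals, was shared with another of the 373.
miR-144-5p: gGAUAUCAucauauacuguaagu
miR-144-3p: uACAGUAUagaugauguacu
miR-451-5p: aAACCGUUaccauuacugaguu

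Libraries held from 1559653 to 2915959 miRNA reads (median 2276033.5) in SE rats and from 1180138 to 3881319 (median 2222937.5) in control rats, and the mean depth did not differ detectably (two-sided permutation test of log10 reads, p = 0.953). Between 530 and 575 miRNAs had at least 1 read in a library, and rank correlations between libraries ran from 0.952 to 0.995. No 2 libraries held identical counts. miR-9a-5p, a miRNA of neural progenitors and neurons, took 39.6% of all reads, and the neuronal miR-128-3p took 4.58%. miR-124-3p, the defining neuronal miRNA, stood at 17886 ± 2803 CPM (reads per 1000000 reads of a library, after TMM scaling) in SE rats and 19339 ± 4050 CPM in control rats (SD, n = 10 each), so the defining neuronal miRNAs of the labelled tissue were present in both groups. The liver miRNA miR-122-5p and the epithelial miR-200b-3p, miR-141-3p and miR-429 did not reach the read minimum, while 5 of 7 miRNAs of the liver and muscle list and 6 of 9 of the epithelial list did. One library, that of SE rat 4, stood apart: its median rank correlation with the others was 0.964, against 0.983 for the next lowest library, and its score on the first principal component, which held 27.3% of the variance, was -15.7 where the other 19 ran from -1.504 to 3.40. Results that rest on it are given with and without it.

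The first question was which miRNAs differed 1 week after SE in infancy. Of 629 miRNAs listed for the stage, 406 had more than 500 reads over its 40 libraries and were tested, and 2 differed at a Benjamini-Hochberg adjusted p under 0.05 in edgeR's quasi-likelihood test, which is 0.493% of those tested. miR-144-5p was lower in SE rats and miR-212-3p was higher. Without adjustment, 55 miRNAs had a p under 0.05 (13.5%), 29 higher and 26 lower. The median log2 fold change over all 406 was 0.01, a centre that the scaling sets near 0. The study's thresholds were a p under 0.05 and a fold change of 1.4, and the paper does not say whether that p was adjusted. With p taken as unadjusted and a fold change of at least 1.4, they were met by 7 miRNAs (1.72%), 4 higher (0.985%) and 3 lower (0.739%). All 4 of the higher ones rested on SE rat 4, as described further on. SE status held 6.83% of the variance between libraries (permutation test on Euclidean distances, p = 0.0854). That share was 8.31% (p = 0.036) without SE rat 4, 7.82% (p = 0.0333) without SE rat 9 and 7.55% (p = 0.0468) without control rat 2, by the same permutation test. In the other 17 leave-one-out fits p was above 0.05, up to 0.201 by the permutation test.

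**Figure D1:**
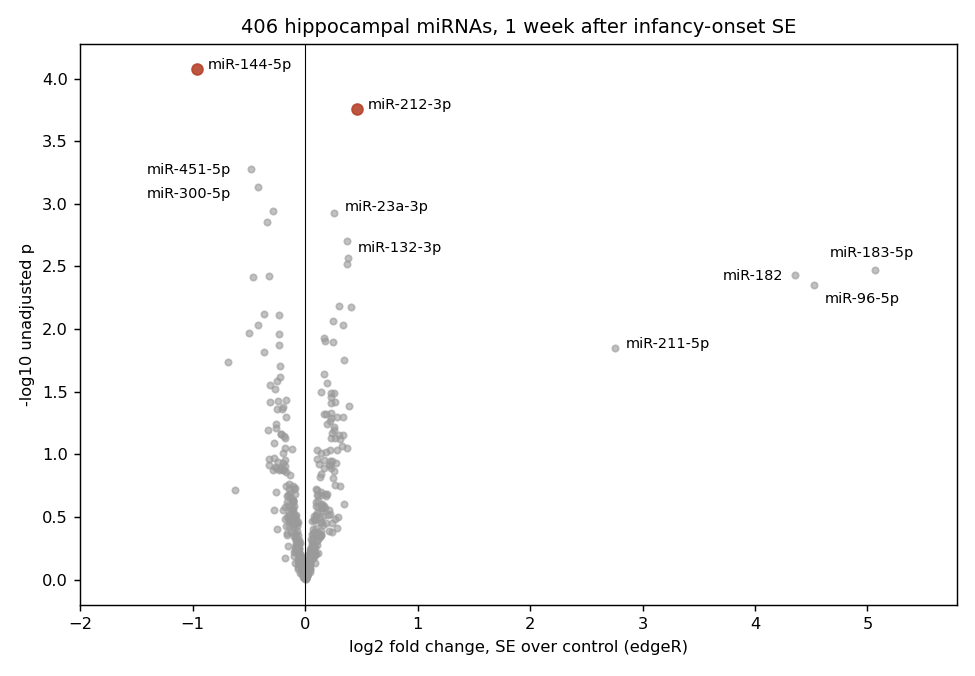
Each point is 1 of 406 miRNAs, with the log2 fold change of 10 SE rats over 10 control rats on the x axis and -log10 of the unadjusted p from edgeR on the y axis. The 2 red points, miR-144-5p and miR-212-3p, passed the adjusted threshold, and the 4 points far to the right are miRNAs carried by SE rat 4.

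In the activity-regulated pair of miR-212 and miR-132, miR-212-3p was higher in SE rats. This miRNA, which with miR-132 shapes dendrites and synaptic transmission, had a lowest value of 149.8, a median of 235 and a highest value of 254 CPM in SE rats, against 123, 161 and 189 CPM in control rats. In 8 of the 10 SE rats the level was above every control rat, and the other two SE rats fell among the controls. Its mean was 219 ± 38.5 CPM in SE rats and 159 ± 21.6 CPM in control rats (SD, n = 10 each), a log2 fold change of 0.46 with a standard error of 0.11 (edgeR, adjusted p = 0.0357). Leaving out 1 rat at a time moved the log2 fold change between 0.42 and 0.51. The adjusted p rose above the threshold in 12 of those 20 fits, the highest being 0.0921 (edgeR), which happened without SE rat 1, 2, 3, 5, 6, 8 or 9 and without control rat 3, 7, 8, 9 or 10.

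miR-132-3p, its partner with the same seed, had a lowest value of 799, a median of 1064 and a highest value of 1335 CPM in SE rats, against 624, 799.9 and 1092 CPM in control rats. The groups overlapped, with 9 of 10 SE values above the median of control rats and 5 control rats below every SE rat. Its log2 fold change was 0.37, with a standard error of 0.11 (95% interval 0.15 to 0.59), and did not pass adjustment over all miRNAs (edgeR, adjusted p = 0.101). It passed in DESeq2 (adjusted p = 0.0385) and, in edgeR, when only miRNAs of at least 50 CPM were tested (adjusted p = 0.0478). The other arms had positive log2 fold changes as well, 0.41 for miR-212-5p (95% interval 0.12 to 0.69) and 0.25 for miR-132-5p (95% interval 0.02 to 0.48), neither past the adjusted threshold.

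Across the list of activity-regulated miRNAs, 7 of 8 were measured and all 7 had a positive log2 fold change, from 0.13 to 0.46, with a median of 0.25. Of these, 1 passed the adjusted test and 5 had an unadjusted p under 0.05, where 7.14% of all miRNAs had such a p in that direction. The remaining members include miR-134-5p, which limits dendritic spine size, at a log2 fold change of 0.17, and miR-485-5p, at 0.13. Arms of 1 hairpin share their source, so the 4 arms of miR-212 and miR-132 do not count as 4 separate observations. The summed level of the list had a lowest value of 1922, a median of 2633 and a highest value of 2876 CPM in SE rats, against 1629, 1956 and 2387 CPM in control rats.

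**Figure D2:**
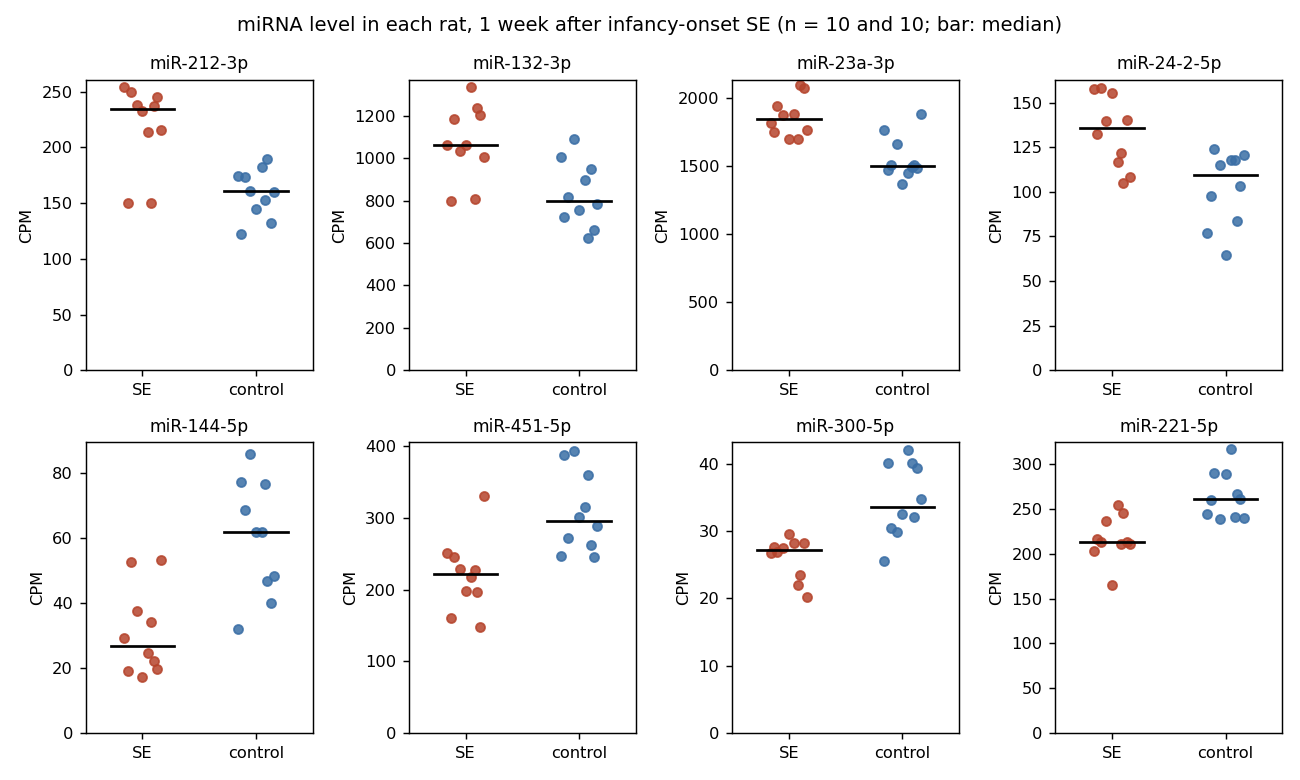
Each point is the level in 1 rat (CPM, linear axis from 0) for 8 miRNAs, with 10 SE rats left, 10 control rats right and a bar at the median. miR-212-3p, miR-132-3p, miR-23a-3p and miR-24-2-5p have higher medians in SE rats and miR-144-5p, miR-451-5p, miR-300-5p and miR-221-5p lower ones, and the groups overlap in every panel.

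In the erythroid cluster of miR-144 and miR-451, miR-144-5p was lower in SE rats. It had a lowest value of 17.2, a median of 26.9 and a highest value of 53.2 CPM in SE rats, against 31.9, 61.8 and 85.9 CPM in control rats. None of the SE rats reached the control median, and 6 of them lay below every control rat. The means were 30.9 ± 13.3 CPM in SE rats and 59.8 ± 17.7 CPM in control rats (SD, n = 10 each), a log2 fold change of -0.96 with a standard error of 0.21 (edgeR, adjusted p = 0.0344). The log2 fold change stayed between -1.08 and -0.89 when each rat was left out. The adjusted p rose above the threshold in 8 of those 20 fits (edgeR, up to 0.0921), which happened without SE rat 2, 6, 8 or 9 and without control rat 3, 7, 9 or 10.

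miR-451-5p, which red cell precursors process without Dicer, had a lowest value of 147, a median of 222.5 and a highest value of 331 CPM in SE rats, against 245, 295 and 393 CPM in control rats. It lay below every control rat in 7 of 10 SE rats, with a log2 fold change of -0.48, a standard error of 0.12 and an adjusted p of 0.0710 (edgeR). Its adjusted p was 0.0124 in DESeq2, 0.0422 in limma voom and 0.0334 in edgeR without SE rats 4 and 9 and control rat 10, an exclusion chosen after seeing the data. The opposite arm of the called hairpin, miR-144-3p, averaged 19.5 ± 5.70 CPM in SE rats and 31.3 ± 19.7 CPM in control rats (SD, n = 10 each), with a log2 fold change of -0.69 (95% interval -1.24 to -0.13, edgeR adjusted p = 0.232). All 4 measured members of the erythroid list had a negative log2 fold change, with a median of -0.58, 1 passed the adjusted test and 3 had an unadjusted p under 0.05, where 6.4% of all miRNAs had such a p in that direction. The 3 were miR-144-5p, miR-144-3p and miR-451-5p, which come from neighbouring hairpins, so they do not count as 3 separate observations.

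miR-486, the other erythroid marker, differed little, at 179 ± 36.05 CPM in SE rats and 189.7 ± 46.7 CPM in control rats (SD, n = 10 each), with a log2 fold change of -0.08 (95% interval -0.35 to 0.18) that was 0.0022 without control rat 7. The summed erythroid level ran from 332 to 657 CPM (median 445) in SE rats and from 474 to 785 CPM (median 552) in control rats. Blood left in the tissue was not measured, and its part in the miR-144 difference was not tested. The vessel list, with miR-126a-3p of endothelium and miR-143-3p and miR-145-5p of smooth muscle, had 2 of 7 members higher, 5 lower and none with an unadjusted p under 0.05, with a median log2 fold change of -0.10.

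The next sequences are shown because miR-23a-3p, which missed the adjusted threshold in edgeR, passed it in DESeq2 and limma voom. miR-23a-3p and miR-24-2-5p come from neighbouring hairpins on the minus strand of chromosome 19, with 239 bases between them, and miR-23b-3p comes from the paralogous cluster on chromosome 17. The seed in capitals is the same in miR-23a-3p and miR-23b-3p, whose compared sequences differ at 1 of 21 positions, so that counting with 1 mismatch allowed can move reads from one to the other.
miR-23a-3p: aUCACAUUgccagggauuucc
miR-23b-3p: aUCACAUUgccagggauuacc
miR-24-2-5p: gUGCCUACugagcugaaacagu

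miR-23a-3p, which targets regulators of cell survival and of oligodendrocyte maturation, had a lowest value of 1695, a median of 1846 and a highest value of 2098 CPM in SE rats, against 1371, 1502 and 1881 CPM in control rats. Every SE rat was above the control median and 8 control rats were below every SE rat. Its log2 fold change was 0.25 with a standard error of 0.07 (edgeR, adjusted p = 0.0803), and it was called by DESeq2 (adjusted p = 0.0124) and limma voom (adjusted p = 0.0393). miR-24-2-5p had a log2 fold change of 0.38 (95% interval 0.14 to 0.62) and miR-23b-3p of 0.14 (95% interval 0.01 to 0.27), neither past the adjusted threshold. All 8 measured members of the miR-23/27/24 clusters, of 11 listed, had a positive log2 fold change, from 0.03 to 0.38 with a median of 0.15, and 4 had an unadjusted p under 0.05, against 7.14% of all miRNAs in that direction. In limma voom, with thinned counts and in 4 leave-one-out fits 7 of the 8 were positive. The range includes miR-24-1-5p, which shares a seed with miR-24-2-5p and had a log2 fold change of 0.03 (95% interval -0.32 to 0.37). Members of a cluster come from neighbouring hairpins, and reads of miR-23a-3p and miR-23b-3p can be exchanged. The 8 members therefore do not count as 8 separate observations.

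On the lower side, miR-300-5p and miR-221-5p had the lowest p after the erythroid miRNAs, and they are shown because the opposite arm of each hairpin was measured as well. The seed is in capitals.
miR-300-5p: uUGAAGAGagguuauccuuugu
miR-221-5p: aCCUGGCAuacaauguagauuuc

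miR-221-5p, the minor arm of a hairpin on chromosome X known for promoting cell proliferation, had a lowest value of 165, a median of 213 and a highest value of 254 CPM in SE rats, against 238, 261 and 317 CPM in control rats. It lay below every control rat in 8 of 10 SE rats, with a log2 fold change of -0.29 and a standard error of 0.08 (edgeR, adjusted p = 0.0803). It passed in DESeq2 (adjusted p = 0.0134), in limma voom (adjusted p = 0.0422) and in edgeR at 50 CPM or more (adjusted p = 0.0418). Its abundant opposite arm, miR-221-3p, had a log2 fold change of -0.07 (95% interval -0.22 to 0.08). miR-300-5p, from the imprinted Dlk1-Dio3 region on chromosome 6, averaged 26.04 ± 3.04 CPM in SE rats and 34.7 ± 5.48 CPM in control rats (SD, n = 10 each), with 9 control rats above every SE rat. Its log2 fold change was -0.42 with a standard error of 0.11 (edgeR, adjusted p = 0.0742), and it passed in DESeq2 (adjusted p = 0.0151) and limma voom (adjusted p = 0.0422). The other arm, miR-300-3p, had -0.07 (95% interval -0.31 to 0.17). The difference between the arms of a hairpin was not tested.

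The Dlk1-Dio3 region, an imprinted region rich in brain miRNAs, had 70 of 83 listed miRNAs measured. Of these, 28 had a positive and 42 a negative log2 fold change, with a median of -0.05. None passed the adjusted test, and 5 higher and 7 lower ones had an unadjusted p under 0.05, where 7.14% of all miRNAs were higher and 6.4% lower at that p. miR-136-5p (log2 fold change -0.42, 95% interval -0.72 to -0.11) and miR-539-3p (-0.36, 95% interval -0.62 to -0.10) were the members with the lowest p after miR-300-5p. In the miR-30 family, abundant miRNAs of neurons and vessels, 6 of 7 had a negative log2 fold change and 3 of them an unadjusted p under 0.05, against 6.4% of all miRNAs in that direction. Without SE rats 4 and 9 and control rat 10, or without control rat 10 alone, 5 of the 7 were negative. miR-30a-5p averaged 26729 ± 2520 CPM in SE rats and 31323 ± 4561 CPM in control rats (SD, n = 10 each), a log2 fold change of -0.23 that missed the adjusted threshold (edgeR, adjusted p = 0.165).

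The lists for inflammation and for the cell types of the hippocampus held no call. Of 9 measured miRNAs of reactive glia and inflammation, 5 had a positive and 4 a negative log2 fold change, from -0.20 to 0.37 with a median of 0.10. Of the positive ones, 2 had an unadjusted p under 0.05, against 7.14% of all miRNAs in that direction. They were miR-132-3p, which is also counted in the activity-regulated list, and miR-21-5p. miR-21-5p, a miRNA of reactive glia, had a lowest value of 2827, a median of 3922 and a highest value of 4333 CPM in SE rats, against 2679, 3117 and 4034 CPM in control rats, with a log2 fold change of 0.25 (95% interval 0.07 to 0.43, edgeR adjusted p = 0.173). miR-155-5p, induced in activated microglia, averaged 43.5 ± 14.8 CPM in SE rats and 34.6 ± 11.2 CPM in control rats (SD, n = 10 each), with a log2 fold change of 0.33 (95% interval -0.05 to 0.71). miR-142-3p, restricted to blood-derived cells and microglia, had -0.32 (95% interval -0.60 to -0.04, edgeR adjusted p = 0.299), and its other arm miR-142-5p had -0.01 (95% interval -0.30 to 0.29). Of the 6 microglial and myeloid miRNAs, 3 had a positive and 3 a negative log2 fold change, with a median of 0.04.

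Among 14 neuronal miRNAs, 5 had a positive and 9 a negative log2 fold change, from -0.33 to 0.26, with a median of -0.08, and 1 in each direction had an unadjusted p under 0.05, near the 7.14% higher and 6.4% lower of all miRNAs. The 2 were miR-129-5p, which takes part in synaptic downscaling, at 0.19, and miR-129-1-3p, at -0.31. Of 8 oligodendrocyte miRNAs, 4 had a positive and 4 a negative log2 fold change, and 2 of the positive and 1 of the negative ones had an unadjusted p under 0.05 (miR-23a-3p, miR-27a-3p and miR-338-3p), against 7.14% higher and 6.4% lower among all miRNAs. The astrocyte list had a median of 0.00 over 7 members, with no unadjusted p under 0.05. The let-7 family, which marks differentiated cells, had a median of 0.02 over 9 members and a range from -0.06 to 0.07.

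SE rat 4 differed from the other 19 rats in the miR-183/96/182 cluster, a set of miRNAs of sensory organs and the pineal gland, and in miR-211-5p, a miRNA of pigment cells and choroid plexus. The sequences are shown because the 3 cluster members have different seeds (in capitals) and come from one stretch of the minus strand of chromosome 4, with 182 bases between miR-96-5p and miR-183-5p and 3627 between miR-182 and miR-96-5p. miR-211-5p shares its seed with miR-204-5p and differs from it at 1 of 22 positions, so that reads of the pair can be exchanged by counting with 1 mismatch.
miR-183-5p: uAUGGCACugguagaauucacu
miR-182: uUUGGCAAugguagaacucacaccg
miR-96-5p: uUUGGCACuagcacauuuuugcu
miR-211-5p: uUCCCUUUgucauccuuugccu
miR-204-5p: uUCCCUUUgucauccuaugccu

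In SE rat 4 miR-183-5p reached 15480 CPM, against 19.2 to 47.2 CPM in the other 9 SE rats and 28.7 to 88.2 CPM in control rats. miR-182 reached 16974 CPM, against 50.1 to 87.3 CPM in the other SE rats and 51.0 to 149 CPM in control rats. miR-96-5p reached 766 CPM, against 1.23 to 6.40 CPM in the other SE rats and 2.39 to 4.90 CPM in control rats. The 3 miRNAs together took 3.37% of the reads of this library. miR-211-5p stood at 143 CPM, against 0.981 to 7.61 CPM in the other SE rats and 0 to 5.72 CPM in control rats. miR-204-5p, the far more abundant choroid plexus miRNA, was not raised to a like degree. SE rat 4 had the highest value of the SE rats, 515 CPM, against at most 492 CPM in the other SE rats and 529 CPM in control rats. Of 406 miRNAs, 36 were highest and 24 lowest in SE rat 4 among all 20 rats. Any rat would be highest for some miRNAs and lowest for others, and these counts were not tested against that. Only miR-183-5p, miR-182, miR-96-5p and miR-211-5p were more than 4-fold above the mean of the other SE rats on the log2 scale.

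**Figure D3:**
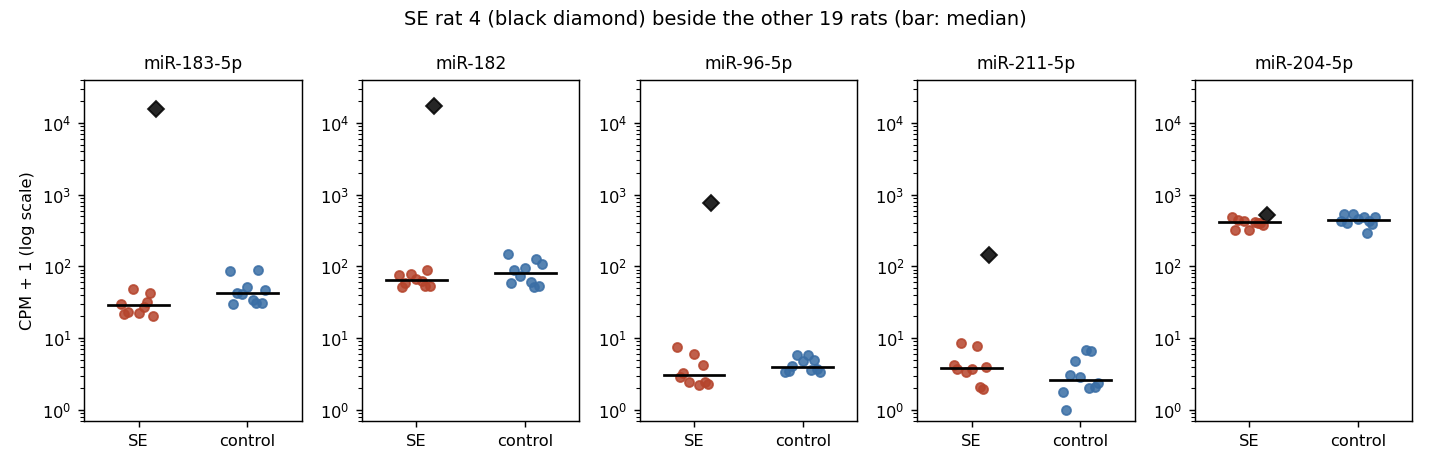
Points are the levels of 5 miRNAs in single rats (CPM + 1, logarithmic axis), with 10 SE rats left, 10 control rats right and a bar at the median. The black diamond, SE rat 4, lies far above all other rats for miR-183-5p, miR-182, miR-96-5p and miR-211-5p and among them for miR-204-5p.

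This single library set the log2 fold changes of these 4 miRNAs in the whole comparison. With all rats they were 5.06 for miR-183-5p, 4.35 for miR-182, 4.52 for miR-96-5p and 2.75 for miR-211-5p, with adjusted p between 0.111 and 0.198 (edgeR). Without SE rat 4 the log2 fold changes of the cluster turned negative, to -0.71 for miR-183-5p, -0.41 for miR-182 and -0.21 for miR-96-5p, none past the adjusted threshold, and that of miR-211-5p was 0.48. In the remaining rats miR-183-5p lay below every control rat in 5 SE rats. The miR-144 and miR-212 calls were present without this library, which was the SE library with the highest miR-144-5p level.

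The second question was whether the difference after SE was unlike at the 2 onset ages. The methods give different doses of pilocarpine and paraldehyde per kg for these ages. They also state that SE was induced in all infant rats injected but in only part of the adult rats. Onset age, drug dose and this selection cannot be told apart here. The 40 latent libraries were fitted together, with 10 adult-onset SE rats and 10 adult-onset control rats (SE at postnatal day 60, taken 1 week later), and the infancy-onset log2 fold change minus the adult-onset one was tested for each miRNA. Of 406 miRNAs, 11 passed (2.71%), 51 had an unadjusted p under 0.05 (12.6%), and all 11 had a larger log2 fold change after adult-onset SE. In the same fit 54 miRNAs (13.3%) differed between adult-onset SE rats and their controls. The 11 include the immune miRNAs miR-142-3p, miR-142-5p, miR-155-5p and miR-146a-5p, the glial miR-21-5p, and 4 members of the miR-17/92 cluster of chromosome 15, which promotes proliferation. Related miRNAs that were tested and did not pass include the myeloid miR-223-3p and miR-150-5p. miR-146b-5p, which shares the seed of miR-146a-5p, and miR-19b-3p, which shares that of miR-19a-3p, did not pass either. The sequences are shown for the miRNAs with the most negative values. They are also shown for 2 members of the miR-17/92 cluster, miR-17-5p and miR-20a-5p, that share a seed (in capitals).
miR-155-5p: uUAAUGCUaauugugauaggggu
miR-142-3p: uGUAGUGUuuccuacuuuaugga
miR-142-5p: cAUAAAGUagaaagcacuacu
miR-18a-5p: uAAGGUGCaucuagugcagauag
miR-17-5p: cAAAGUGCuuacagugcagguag
miR-20a-5p: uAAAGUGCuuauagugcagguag

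miR-155-5p had a log2 fold change of 0.33 (standard error 0.27) after infancy-onset and 2.54 (standard error 0.29) after adult-onset SE in this fit, a difference of -2.21 (edgeR, adjusted p = 2.1e-04). Its level was 41.7 ± 13.3 CPM in infancy-onset SE rats against 33.4 ± 11.6 CPM in their controls, and 57.7 ± 32.8 CPM in adult-onset SE rats against 9.57 ± 3.02 CPM in theirs (SD, n = 10 each). The infancy-onset controls ranged from 23.8 to 63.6 CPM and the adult-onset controls from 4.14 to 13.99 CPM, so the 2 control groups did not overlap. miR-142-3p had -0.31 after infancy-onset and 1.62 after adult-onset SE, a difference of -1.93 (edgeR, adjusted p = 2.1e-04). For miR-18a-5p the difference was -1.41, for miR-142-5p -1.43 and for miR-146a-5p -1.11, with edgeR adjusted p from 2.1e-04 to 6.2e-04. The other 6 had differences from -1.25 for miR-19a-3p to -0.67 for miR-339-5p.

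One adult-onset SE rat, replicate 1, had miR-155-5p at 6.50 CPM, within the range of the adult-onset controls. Without it 16 miRNAs passed, including all 11, and the miR-155-5p difference was -2.33. The number that passed ran from 8 to 16 as each of the 40 libraries was left out, and at least 8 of the 11 were among them in each fit. miR-190b-5p missed the threshold in 18 of the 40 fits, miR-339-5p in 5 and miR-21-5p in 3. miR-190b-5p also missed it in limma voom. The miRNAs that led the infancy-onset comparison did not pass this test. The difference for miR-212-3p was -0.30 (edgeR, adjusted p = 0.598), for miR-132-3p -0.11 (edgeR, adjusted p = 0.818), for miR-144-5p -0.98 (edgeR, adjusted p = 0.206) and for miR-451-5p -0.85 (edgeR, adjusted p = 0.133).

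**Figure D4:**
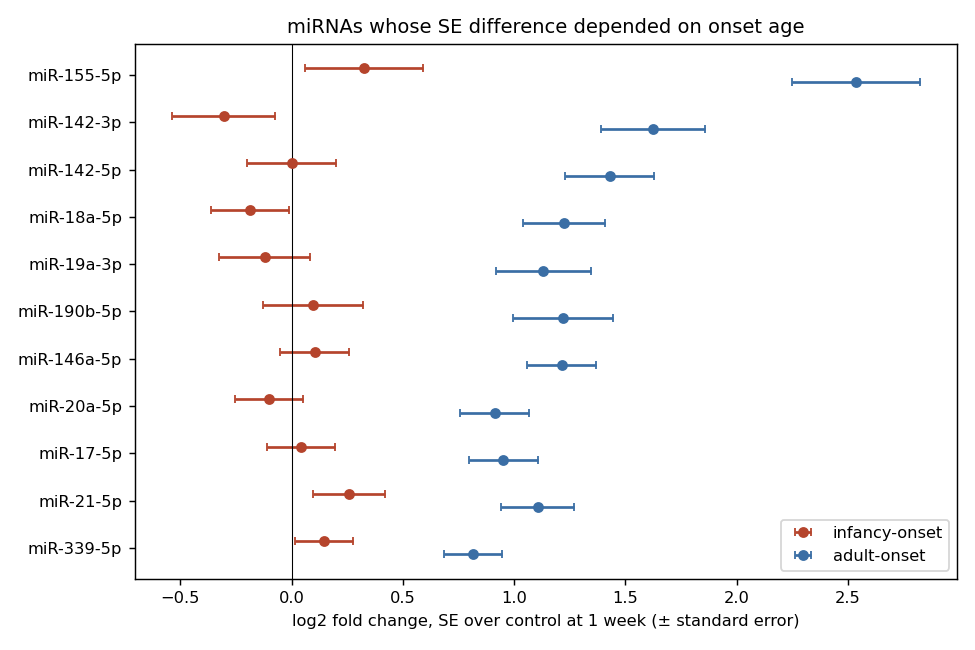
The 11 miRNAs are those whose log2 fold change after SE differed between the onset ages, which also differed in drug dose. Points give the log2 fold change of SE over control 1 week after infancy-onset (red) and adult-onset SE (blue). Bars are 1 standard error. The infancy-onset points lie between -0.31 and 0.33 and the adult-onset points between 0.82 and 2.54.

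The infancy-onset comparison at the other stages comes from separate tables with their own rats, so values are set side by side without a test between stages. At 24 hours, with 8 SE and 9 control rats, 23 of 383 miRNAs passed (6.01%), 17 of them higher (4.44%). At 3 months, with 10 SE and 9 control rats, none of 442 passed (0%), in edgeR, and 22 had an unadjusted p under 0.05 (4.98%). The log2 fold change of miR-212-3p was 1.57 at 24 hours, 0.46 at 1 week and -0.23 at 3 months. For miR-132-3p it was 0.90, 0.37 and 0.08 in the same order, for miR-212-5p 1.499, 0.41 and 0.02, and for miR-132-5p 1.14, 0.25 and -0.01. All 4 arms passed the adjusted test at 24 hours. miR-21-5p had 1.63, 0.25 and 0.39 and miR-155-5p 1.45, 0.33 and 0.72, and both passed at 24 hours only.

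The erythroid miRNAs had another order. miR-144-5p had a log2 fold change of 0.10 at 24 hours (64.6 ± 16.9 CPM in SE rats, 59.1 ± 26.9 CPM in control rats, SD), -0.96 at 1 week and -0.59 at 3 months, and miR-451-5p had 0.00, -0.48 and -0.38. At 24 hours and 3 months neither passed the adjusted test, and the standard errors there, 0.26 and 0.33 for miR-144-5p, were larger than the 0.21 at 1 week.

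**Figure D5:**
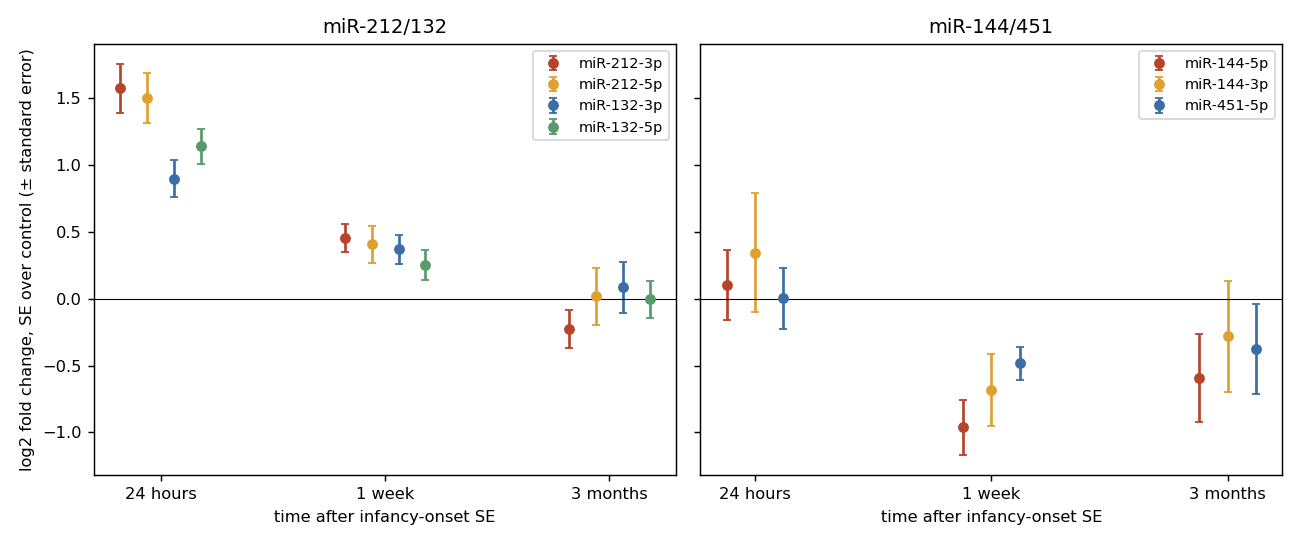
Points give the log2 fold change of SE over control after infancy-onset SE at 24 hours, 1 week and 3 months, with bars of 1 standard error, for the 4 arms of miR-212 and miR-132 (left) and for miR-144 and miR-451 (right). The points of the miR-212 and miR-132 arms lie between 0.90 and 1.57 at 24 hours and between 0.25 and 0.46 at 1 week, while those of miR-144 and miR-451 are lowest at 1 week.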

How the data were processed

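Small RNA libraries of rat hippocampus (NEXTflex kit v3, 1 per rat) were trimmed by the authors with Kraken and Cutadapt, size-selected and assigned to miRBase with seqBuster, which allowed 1 mismatch. The methods state this for the chronic stage, and the same is assumed for the latent stage. The deposited counts are raw reads per mature miRNA. The deposited signal, the authors' normalized reads, equals those counts divided by 1 median-of-ratios size factor per library. The authors name DESeq2 1.16.1. No columns of the authors' own tests were used.

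Counts were tested here with edgeR 4.0.16 (R 4.3.3), TMM scaling and the quasi-likelihood test, for miRNAs with more than 500 reads over the 40 latent libraries, with Benjamini-Hochberg adjustment over all 406 and a threshold of 0.05. CPM are TMM-scaled, and logarithms used a prior count of 2. The 20 infancy-onset libraries were fitted alone, and all 40 for the onset-age interaction. The other infancy-onset stages were fitted in their own tables. Alternatives were median-of-ratios factors, DESeq2 1.42.0, limma 3.58.1 voom with sample weights, limma-trend on log2(normalized reads + 1), no read minimum, at least 50 CPM, thinned counts and each library left out. The fits were tested on simulated counts whose changes were larger than most differences reported here, so that test does not cover small differences.

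Among the infancy-onset libraries of the latent stage the smallest held 1180138 reads, so 1 CPM was at least 1 read there. The adult-onset libraries of that stage ran from 450644 reads (control replicate 5) to 8165312 reads (control replicate 2). In the smallest of these, 1 CPM was less than 1 read, so low adult-onset values are less precise there. The labels do not say whether rats came from separate litters, so p-values measure the spread between these rats. Intervals of fold changes are 95%. Named miRNAs were the 5 lowest p of each comparison, up to 3 with the lowest p of each list, the 5 with most reads and opposite arms of the leading ones. The miRNAs miR-132-5p, miR-486, miR-204-5p, miR-24-1-5p, miR-134-5p and miR-485-5p, with members of the interaction calls beyond the first 5, were named after their values were seen. The choice of these groups for description, the lists and the tests were made with earlier results of these data known.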

Additional observations from a re-analysis of the deposited data

Results flagged for a closer look

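Single rats far from the rest of their group were looked for in each miRNA and group of 10 rats. Of 812 such groups, 87 (10.7%) held one, where chance gives about 1 in 20, and 22 of these were in SE rat 9, 22 in control rat 10 and 11 in SE rat 4. Among the miRNAs named, SE rat 4 was far from the other SE rats for miR-183-5p (15480 CPM), miR-182 (16974 CPM), miR-96-5p (766 CPM), miR-211-5p (143 CPM) and let-7f-5p (25543 CPM). SE rat 9 was low for miR-221-5p (165 CPM) and miR-128-3p (29460 CPM), and SE rat 10 was low for miR-146a-5p (277 CPM) and miR-29b-5p (44.8 CPM). Control rat 10 was high for miR-142-5p (87.5 CPM), miR-29c-3p (1431 CPM), miR-30e-5p (18287 CPM) and miR-300-3p (995 CPM). The remaining control rats that stood apart were rat 9 for miR-155-5p (63.7 CPM), rat 7 for miR-448-5p (3.96 CPM), rat 1 for miR-23b-3p (3079 CPM), rat 4 for miR-145-5p (789 CPM) and rat 3 for miR-129-5p (2529 CPM).

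The log2 fold change after SE differed between onset ages for 11 miRNAs by a test of that difference. Infancy-onset minus adult-onset, it was -2.21 for miR-155-5p, -1.93 for miR-142-3p, -1.43 for miR-142-5p, -1.41 for miR-18a-5p, -1.25 for miR-19a-3p and -1.12 for miR-190b-5p. It was -1.11 for miR-146a-5p, -1.02 for miR-20a-5p, -0.91 for miR-17-5p, -0.85 for miR-21-5p and -0.67 for miR-339-5p.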

How the results depend on the processing

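The number of miRNAs called was small and moved with the processing. Against 2 calls (1 higher, 1 lower), DESeq2 made 10 (3 higher, 7 lower), limma voom 5 (4 lower) and a minimum of 50 CPM 6 (3 higher, 3 lower). The lower calls of DESeq2 included miR-135b-5p and miR-450b-5p, which are not described above. Limma-trend, no read minimum and thinned counts made 1 each and 0 higher. Fitting all 40 latent libraries together made 3, all higher (0 lower), and these were the miR-183/96/182 cluster that SE rat 4 carries. Median-of-ratios factors in edgeR made 2. Leaving out 1 rat at a time gave 0 to 5 calls, 0 to 2 higher and 0 to 3 lower. Leaving out SE rats 4 and 9 and control rat 10, a choice made after seeing the data, gave 0 higher and 2 lower. At the study's thresholds, 7 miRNAs became 1 in limma voom, 4 in limma-trend, 4 at 50 CPM and 4 to 10 as each rat was left out. With the study's read minimum dropped and only its p and fold thresholds kept, 29 of 625 miRNAs met them.

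miR-144-5p was called in all alternatives other than the joint fit (-0.96, edgeR adjusted p = 0.120) and 8 leave-one-out fits. miR-212-3p kept its sign but missed the threshold in limma voom (0.42), limma-trend (0.43), without a read minimum (0.43), in the joint fit (0.46), with thinned counts (0.45), without the 3 libraries (0.44) and in 12 leave-one-out fits. The miR-183 cluster changed sign. miR-183-5p had -0.69 in DESeq2 (adjusted p = 0.048), -0.078 in limma voom and -0.71 without the 3 libraries. miR-182 had -0.40 in DESeq2 and -0.47 without the 3 libraries, and miR-96-5p had -0.26, -0.022 in voom and -0.39. Leaving out each rat gave -0.71 to 5.21 for miR-183-5p, -0.41 to 4.50 for miR-182 and -0.21 to 4.68 for miR-96-5p.

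Values near 0 also changed sign. let-7c-5p had -0.058 without the 3 libraries, miR-448-5p -0.11 in voom and -0.013 in limma-trend, miR-9a-5p 0.0083 in voom and 0.011 without the 3 libraries, and miR-26a-5p -0.0080 without a read minimum. miR-300-3p had 0.012 in voom and 0.076 without the 3 libraries, and miR-17-5p -0.00015. miR-24-1-5p had -0.083 in voom. miR-142-5p had 0.054 in voom, 0.027 in limma-trend, 0.00041 in the joint fit, 0.079 thinned and 0.13 without the 3 libraries. With each rat left out, ranges were -0.0043 to 0.10 for let-7c-5p, -0.064 to 0.22 for miR-448-5p, -0.077 to 0.012 for miR-9a-5p, -0.00037 to 0.065 for miR-9a-3p, -0.0037 to 0.041 for miR-26a-5p, -0.11 to 0.042 for miR-300-3p, -0.050 to 0.14 for miR-142-5p and -0.011 to 0.075 for miR-17-5p, with -0.147 to 0.0022 for miR-486 and -0.062 to 0.089 for miR-24-1-5p.

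The onset-age interaction called 17 miRNAs in DESeq2 and 19 in limma voom (3 above 0), against 11 (0 above 0). It called 8 to 16 as each library was left out. The variance held by SE ran from 6.45% to 8.31% as each rat was left out and was 9.66% (permutation p = 0.0205) without the 3 libraries. The causes of these shifts were not tested. The other named miRNAs that were refitted kept their direction under the processing alternatives run. No paired analysis was possible because replicate numbers follow the order of the libraries and the labels link no SE rat to a control rat. Low miRNAs such as miR-96-5p, at 1.23 to 6.40 CPM in the SE rats other than SE rat 4, rest on few reads, which limits their precision. miR-144-5p, at 17.2 to 53.2 CPM in SE rats, rests on more reads than miR-96-5p did in those rats, though on far fewer than the abundant miRNAs.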
